A study of Mus musculus with 3 samples.

Results

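The genes described here encode the moving and structural parts of the axoneme, the microtubule core of the sperm tail, and the factors that build it. They are 46 genes chosen by symbol out of the 32285 genes of the files: 13 axonemal dynein heavy chains, 3 dynein light or light-intermediate chains, 7 assembly factors, 5 genes of the ruler and nexin link, 5 tektins, 3 cilia and flagella associated proteins linked to dyneins or their tether, 7 central pair genes, 2 radial spoke head genes and Meig1. All 46 were present, and each had at least 1 unique molecular identifier (UMI, a captured RNA molecule) in the kept cells of every library. Gene positions are those of GENCODE M21 on GRCm38, where the members lie on 17 chromosomes.

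The samples were testes of adult C57BL/6N mice, profiled by droplet single-cell RNA sequencing of 3′ ends. Wildtype replicates 1 and 2 were libraries of 1 mouse each, and the library of the conditional Tex10 knockout pooled cells of 2 mice. The labels say neither which Cre was used nor which exons it removed. With 1 knockout library a test between genotypes could not be made, so knockout values are given with no p-value and no replicate check. Values in threes follow the order wildtype 1, wildtype 2, knockout.

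Dynein arms on the outer doublet microtubules slide neighbouring doublets past each other; the outer arms drive the beat and the inner arms shape it. The heavy chains are very large motor proteins that dedicated assembly factors fold and put together in the cytoplasm before they enter the tail. Radial spokes and the central pair regulate the arms, the ruler and nexin link place and couple them, and tektins form filaments inside the doublet wall. The tail itself grows out from round spermatids.

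The libraries held 93418341, 96001773 and 147783171 UMIs, and 7483, 7670 and 11053 of their 9967, 10153 and 12918 barcodes were kept. Clusters of low-UMI barcodes, 58.6%, 44.3% and 66.5% of those kept, were left out of the stages. The named germ cells numbered 2695, 3765 and 3151 with medians of 14792, 11822 and 20271 UMIs, so knockout cells were the deepest; 85 of 32953 distinct barcodes occurred in more than 1 library. Clustering left out the 46 members, and a class name means that a cluster resembles that cell type by marker genes. The 11 germ cell clusters were, in order, spermatogonia, early spermatocyte 1 and 2, an unnamed cluster, late spermatocyte 1 and 2, round spermatid 1 and 2, and elongating spermatid 1 to 3. The unnamed cluster (225, 326 and 233 cells) scored best as early spermatocyte, but Piwil1, a late spermatocyte marker, was among its leading genes. Late spermatocyte cluster 2 also held round spermatid markers, at 4616, 4866 and 5346 CPM (UMIs per 1000000 UMIs of the cluster), against 9261, 8834 and 8969 CPM in round spermatid cluster 1. Tex10 stood at 158, 144 and 143 CPM in early spermatocytes and at 19.1, 21.1 and 13.3 CPM in round spermatids, a knockout level of 94.7% and 66.3% of the wildtype mean. Counts at the 3′ end need not show the loss of an internal exon.

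Promoter stretches of members that differ in their stage of onset are shown first. RFX factors, known regulators of genes for cilia, bind an element called the X-box. Its half-site GTTGCC was searched on both strands from 250 bases before to 50 after each RefSeq start site (GRCm38.p6). Of the 46 members, 40 had a promoter in the RefSeq table. The half-site was in 16 of them (40.0%) and in 14.1% of 27025 genes. By promoter the shares were 37.8% of 45 and 12.5% of 32851. GC content was similar, with a median of 53.7% in members' promoters and 52.7% in all. Among promoters of at least 50% GC, the half-site was in 45.7% of 35 member promoters and in 13.4% of 19938. A strict form of the full X-box (GTTNCC, 2 further bases, GGNAAC) was in 0 of the 40 members and in 0.529% of genes. Looser forms and other spacings were not searched. AACTGCC, found in sites of the meiotic factor A-MYB, was in 3 members (Dnah12, Tekt4 and Zmynd10; 7.5%) and in 4.76% of genes. TGACGTC, found in sites of CREM and related factors, was in 2 members (Dnah6 and Tekt1; 5.0%) and in 3.6% of genes. None of the 3 short motifs contains another, while a full X-box can contain the half-site. A match describes letters in a window, and binding was not measured.

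The stretches below run 5′ to 3′ on the gene's own strand, end before the start site, and have the half-site or its reverse complement GGCAAC in capitals. They are given from the earliest to the latest onset described below. RefSeq start sites can differ from the GENCODE gene ends given with the values.
Dnaaf2 (chr12:69198430-69198509, minus strand): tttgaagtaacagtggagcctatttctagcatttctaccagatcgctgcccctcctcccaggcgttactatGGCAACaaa
Dnah7a (chr1:53706942-53707021, minus strand): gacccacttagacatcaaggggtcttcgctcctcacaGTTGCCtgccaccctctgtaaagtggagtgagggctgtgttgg
Dnah7b (chr1:46066653-46066732, plus strand): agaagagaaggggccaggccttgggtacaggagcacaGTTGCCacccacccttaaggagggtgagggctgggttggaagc
Spag16 (chr1:69826830-69826909, plus strand): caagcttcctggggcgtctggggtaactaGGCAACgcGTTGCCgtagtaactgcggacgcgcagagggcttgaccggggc
Hydin (chr8:110266897-110266976, plus strand): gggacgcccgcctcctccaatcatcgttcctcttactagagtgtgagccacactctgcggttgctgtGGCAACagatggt
Tekt1 (chr11:72361883-72361962, minus strand): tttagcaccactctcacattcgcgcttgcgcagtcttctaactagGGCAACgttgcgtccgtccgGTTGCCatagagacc
Gas8 (chr8:123518744-123518823, plus strand): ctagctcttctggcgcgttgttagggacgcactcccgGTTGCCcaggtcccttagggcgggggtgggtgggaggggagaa
Dnah10 (chr5:124725005-124725084, plus strand): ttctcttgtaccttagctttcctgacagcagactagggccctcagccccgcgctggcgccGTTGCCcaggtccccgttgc
Tekt2 (chr4:126325689-126325768, minus strand): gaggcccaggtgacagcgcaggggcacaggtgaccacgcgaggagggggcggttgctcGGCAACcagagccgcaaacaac

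The stretches shown for Spag16 and Tekt1 each hold a pair of half-sites in opposite orientation; Tekt2 and Gas8 have both orientations in their promoters, in part outside the stretches shown. The Dnah7a and Dnah7b stretches, set on the half-site with no gaps allowed, had the same base at 31 of 80 positions. Bases that match only after a shift are not counted, so this is no measure of how related the promoters are. Among members with a promoter in the table, half-sites occurred in those of early and of late onset: in Dnaaf2 and Dnaaf5, whose RNA was already in spermatogonia, in 2 of 4 members with onset in early spermatocyte cluster 2, in 8 of 20 with onset in the unnamed cluster and in 2 of 3 with onset in late spermatocyte cluster 2. Counting a site that overlapping promoters of 1 gene share once, 23 distinct sites lay between 200 bases before and 40 after the start site, and 17 lay before it.

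Most members had their onset at the same stage of spermatocytes. Onset was taken as the first stage where a gene reached 20% of its highest stage and where the lower bound of its 95% Poisson interval lay above its level in pooled myoid and Leydig cells, somatic cells without a sperm tail. Such intervals cover counting error only. A stage was called where all 3 libraries gave the same one; Dnah5 and Dnah11 stayed under the 5 CPM needed, which left 44 members. Late spermatocytes were the class of onset of 29 members (65.9%) and of 14.7% of 13588 genes. Spermatogonia held the onset of 2 members (Dnaaf2 and Dnaaf5; 32.2% of genes), early spermatocytes of 4 (Dnah7a, Dnah7b, Dnal4 and Rsph1; 6.42%), round spermatids of 2 (Dnah9 and Tekt5; 9.63%) and elongating spermatids of 0 (0.449%). The libraries differed for the other 7.

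Highest levels followed the same course. They lay in late spermatocytes for 33 of the 44 members, and for 18.8% of genes. Round spermatids had the highest level of 8 members (Dnah9, Dnah3, Dnali1, Dnaaf3, Tekt2, Tekt4, Tekt5 and Cfap69), near the 16.9% of genes. Spermatogonia had that of Dnaaf5 alone (27.0% of genes), and early and elongating classes that of 0 members (18.5% and 7.07%). Together the members' RNA made up 0.158%, 0.182% and 0.162% of UMIs in spermatogonia, 2.09%, 2.01% and 2.00% in late spermatocytes and 0.686%, 0.659% and 0.634% in elongating spermatids. A CPM is a share of RNA, and cells of late spermatocyte cluster 1 were the deepest, with median totals of 81540, 62131 and 105576.5 UMIs.

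Over the 11 clusters, 22 members had their onset in the unnamed cluster and 5 just before it in early spermatocyte cluster 2 (Dnah7a, Dnah7b, Dnal1, Dnal4 and Rsph1). Another 2 had it in late spermatocyte cluster 1 (Dnah10 and Tekt3), 4 in late spermatocyte cluster 2 (Dnah3, Dnaaf3, Tekt2 and Tekt4), and Tekt5 in round spermatid cluster 1. The class name of the main onset therefore depended on that 1 cluster: with it as a stage of its own, late spermatocytes held 6 onsets. Under a stricter cell filter (2000 UMIs, 1000 genes, 5% mitochondrial) early spermatocytes held 29 and late spermatocytes 6. Highest levels were spread later than onsets, with 4 members highest in the unnamed cluster, 17 in late spermatocyte cluster 1, 14 in late spermatocyte cluster 2, 6 in round spermatid cluster 1 and Tekt5 in round spermatid cluster 2.

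Another gene lies at the 3′ end of 18 members, on the other strand for 13 and on the same strand for 5 (Dnaaf2, Dnaaf3, Ccdc103, Drc1 and Gas8). The use of strand in counting is not given in the sources used here, so reads of these members and of their neighbours may not be told apart. Those with it on the other strand are Dnah8, Dnah11, Dnah17, Dnah3, Dnah6, Dnali1, Dnal1, Dnaaf1, Ccdc39, Cfap65, Spag17, Rsph1 and Rsph9.

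**Figure D1:**
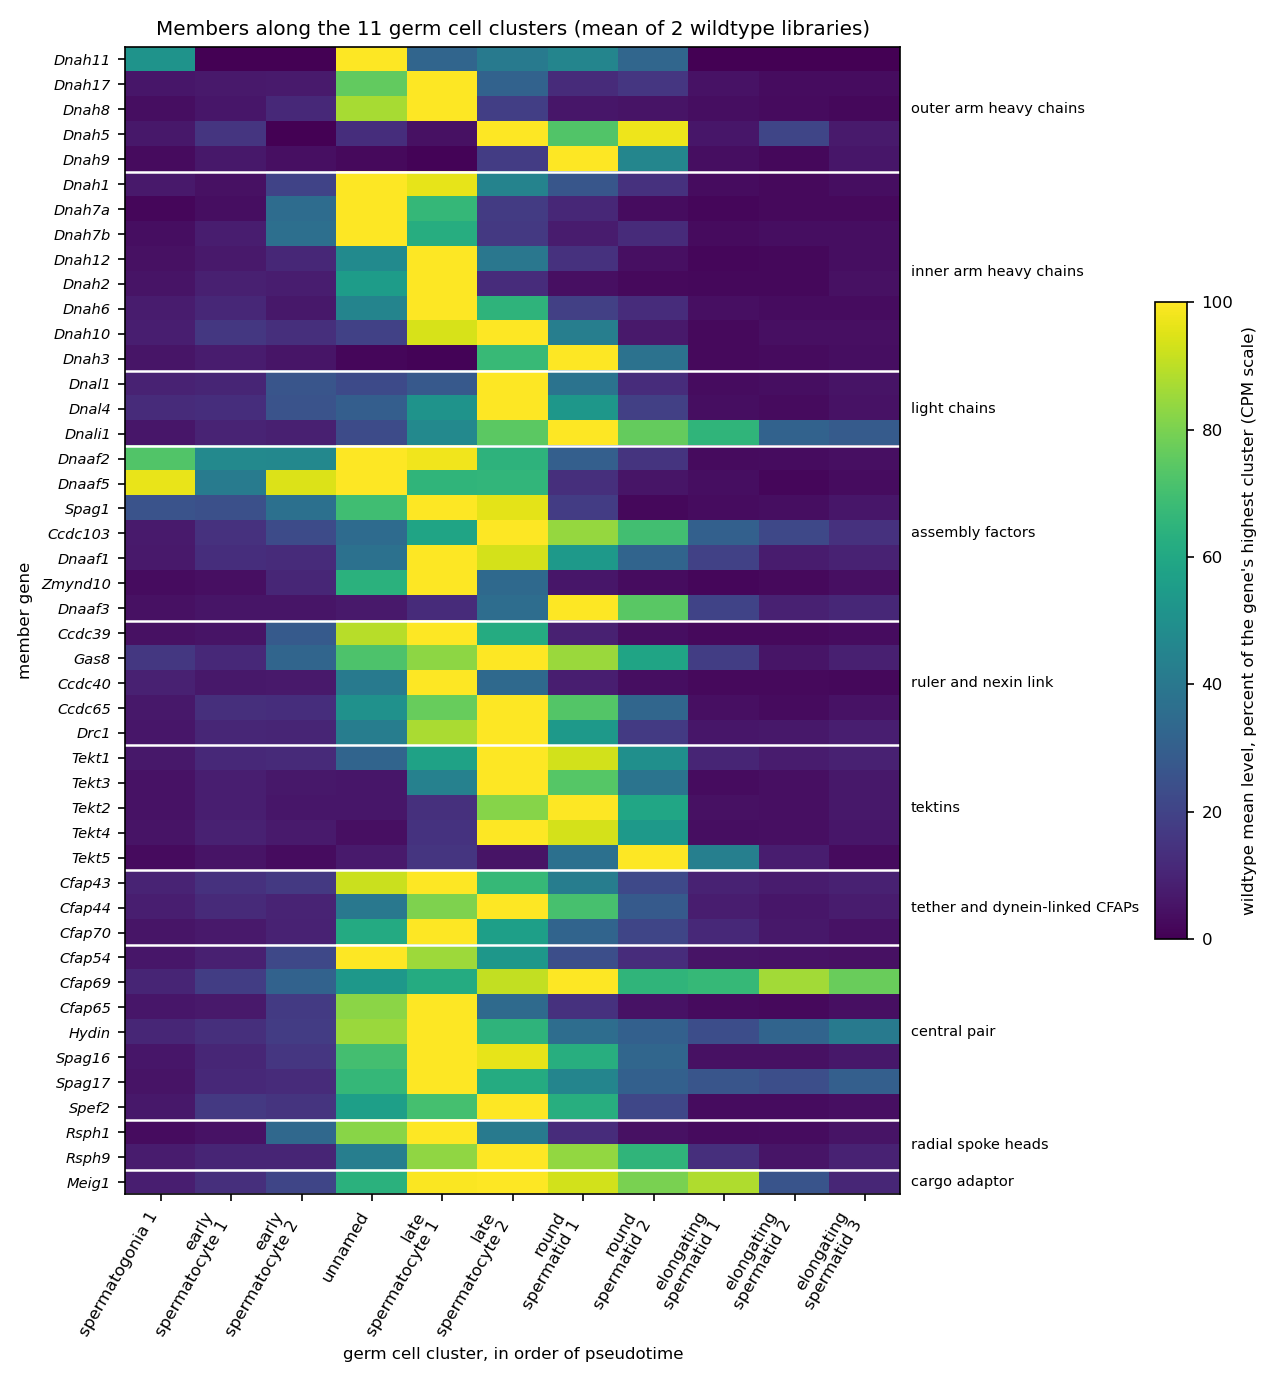
Level of each member (rows, grouped by role) in the 11 germ cell clusters (columns) as percent of the gene's highest cluster, from the mean CPM of the 2 wildtype libraries. Most rows brighten at the unnamed cluster or late spermatocyte cluster 1, Dnaaf2 and Dnaaf5 are bright from spermatogonia on, and Dnah9, Dnah3, Dnaaf3 and Tekt2 are brightest in round spermatid cluster 1 and Tekt5 in round spermatid cluster 2. The rows of Dnah5 and Dnah11 rest on few UMIs.

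Of the outer arm heavy chains, Dnah8 and Dnah17, known from sperm tails, were well detected. Dnah8 (chr17:30624354-30877365, plus strand) stood at 124, 122 and 116 CPM in early spermatocyte cluster 2, at 896, 939 and 818 CPM in the unnamed cluster and at 1054, 1057 and 1141 CPM in late spermatocyte cluster 1. It was at 207, 187 and 206 CPM 1 cluster later and at 61.3, 66.4 and 73.8 CPM in round spermatid cluster 1. Every library thus showed a steep rise and a steep fall on either side of the same pair of clusters. The 35.7, 39.5 and 38.1 CPM in spermatogonia lay below the 140.3, 136 and 157 CPM in Leydig cells and are read as background.

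Dnah17 (chr11:118021723-118130634, minus strand) took the same course, with 8.07, 14.8 and 13.03 CPM in early spermatocyte cluster 2, 122, 122 and 97.8 CPM in the unnamed cluster and 172, 151 and 175 CPM in late spermatocyte cluster 1. Dnah9 and Dnah5 are known to share the outer arms of respiratory cilia. Dnah9 was at 0.27, 0.53 and 0.32 CPM in late spermatocyte cluster 1, at 8.34, 9.504 and 11.7 CPM in cluster 2 and at 51.3, 49.5 and 54.2 CPM in round spermatid cluster 1. It was highest there in all 3 libraries, when Dnah8 and Dnah17 had already fallen. Dnah5 had 17, 36 and 40 UMIs in all round spermatids, or 1.72, 2.59 and 2.16 CPM. Dnah11, also known from respiratory cilia, had 1, 2 and 3 UMIs there, at or under the floor of 3 counts.

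The inner arm heavy chains had early, middle and late onsets. Dnah7a and Dnah7b came first. Dnah7a (chr1:53397006-53706784, minus strand) stood at 3.37, 11.1 and 9.31 CPM in early spermatocyte cluster 1, at 73.05, 66.02 and 54.6 CPM in cluster 2 and at 203, 192 and 200.1 CPM in the unnamed cluster, its highest. Dnah7b (chr1:46066315-46373546, plus strand) was at 54.7, 65.1 and 43.2 CPM and then 168, 159.7 and 162 CPM in the last 2 of these. Of the 31-base words in the last 500 bases, 69.6% of Dnah7a and 56.2% of Dnah7b occur in another Dnah7 gene, so the split of reads among Dnah7a, Dnah7b and Dnah7c is uncertain.

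Dnah2, Dnah6 and Dnah12 had their onset in the unnamed cluster. Dnah12 was at 12.1, 17.2 and 13.8 CPM in early spermatocyte cluster 2, at 58.5, 69.5 and 57.9 CPM in the unnamed cluster and at 134, 133 and 145 CPM in late spermatocyte cluster 1. Dnah2 was at 34.4, 36.1 and 32.4 CPM in the unnamed cluster, at 65.5, 62.3 and 62.4 CPM in late spermatocyte cluster 1 and at 9.93, 6.42 and 9.57 CPM in cluster 2. Dnah6 was at 19.1, 24.3 and 17.9 CPM and then 48.8, 47.4 and 50.9 CPM in the first 2 of these clusters. These genes were highest in late spermatocyte cluster 1, whereas Dnah1 was about equal in the unnamed cluster (92.1, 101 and 98.3 CPM) and in late spermatocyte cluster 1 (90.5, 95.5 and 100.5 CPM), with libraries that differed on its onset and on which was higher.

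Dnah10 and Dnah3 were late. Dnah10 stayed at 5.41, 5.32 and 5.53 CPM in the unnamed cluster and reached 27.2, 25.1 and 26.6 CPM in late spermatocyte cluster 1. Dnah3 (chr7:119922671-120095280, minus strand) was at its lowest in late spermatocyte cluster 1, with 1.88, 0.98 and 1.25 CPM from 35, 13 and 31 UMIs. That cluster was the highest of Dnah8, Dnah17, Dnah2, Dnah6 and Dnah12. Dnah3 was at 93.8, 97.7 and 134 CPM in late spermatocyte cluster 2 and at 134, 151 and 177 CPM in round spermatid cluster 1. In both of these clusters the knockout library was the highest of the 3, while over all round spermatids (92.6, 121 and 120.1 CPM) it lay between the wildtype libraries. The longest annotated transcripts of the 13 heavy chains are 12009 to 16685 bases, and 3′ counting reads only their ends.

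Light chains did not follow 1 heavy chain. Dnal1, an outer arm light chain, had 30.03, 30.6 and 29.3 CPM in early spermatocyte cluster 2, 31.6, 32.5 and 30.2 CPM in late spermatocyte cluster 1 and 113, 116 and 106 CPM in cluster 2. Dnal4 stepped up through the same clusters, with 76.6, 74.6 and 75.5 CPM, 152, 151 and 172 CPM and 306, 282 and 295 CPM. Both were highest in late spermatocyte cluster 2 in every library. Dnali1, an inner arm light-intermediate chain, was highest in round spermatid cluster 1, at 435, 412 and 453 CPM, and still at 128, 117 and 133 CPM in elongating spermatid cluster 3.

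**Figure D2:**
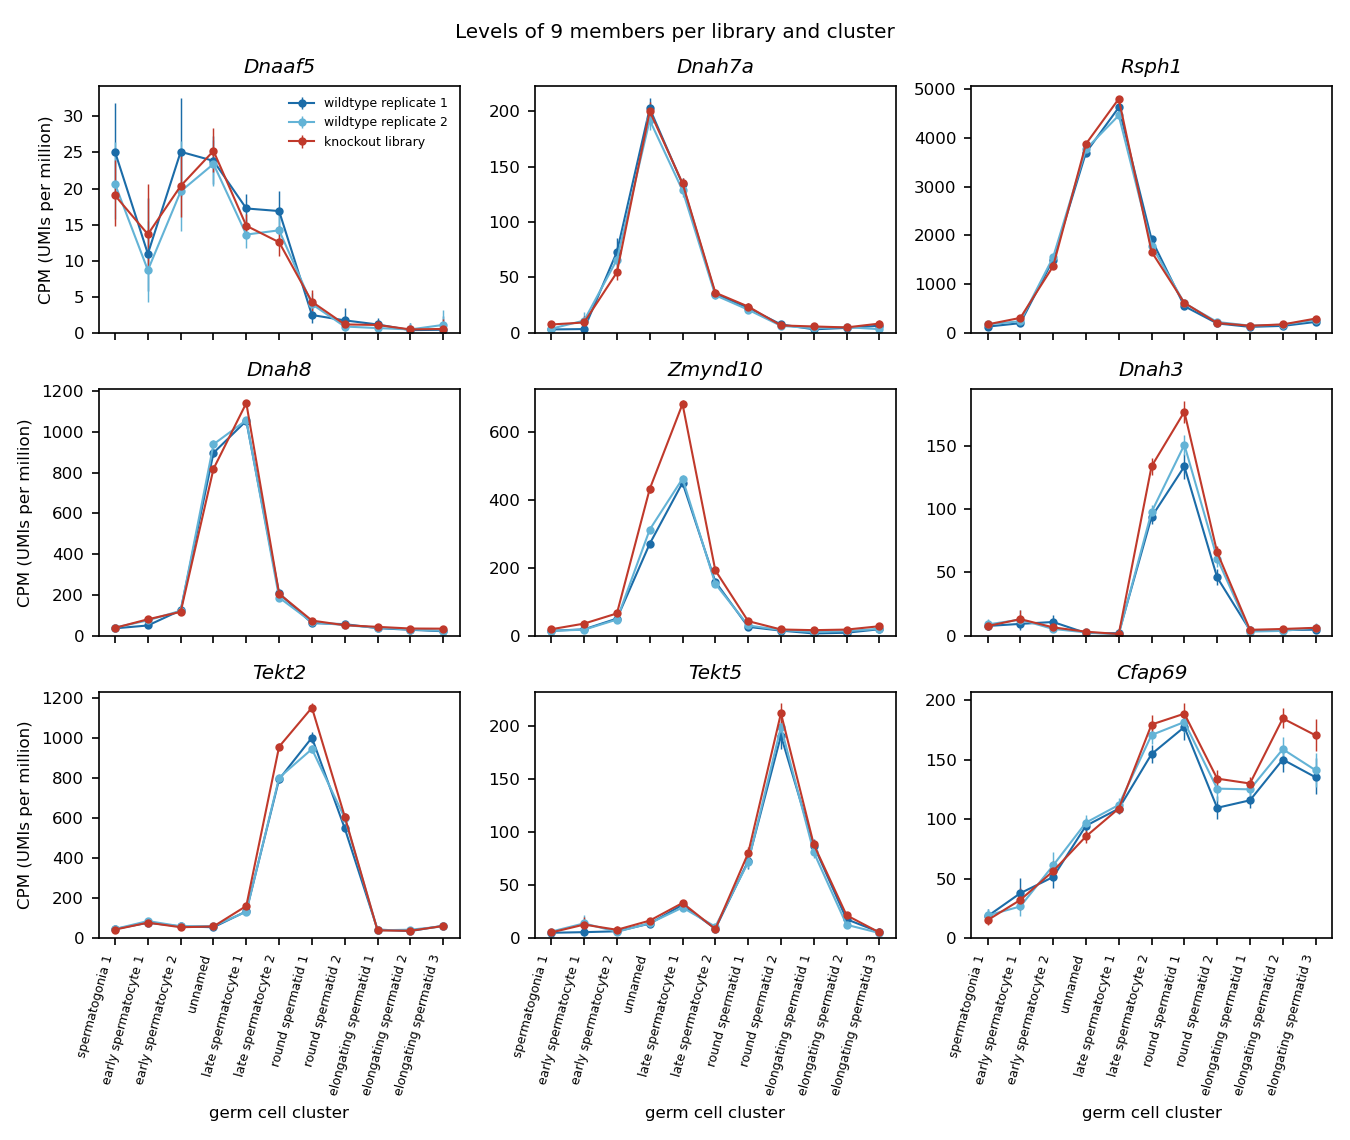
CPM of 9 members (1 panel each, linear axes from 0) in the 11 germ cell clusters for the 2 wildtype libraries and the knockout library, with 95% Poisson intervals for counting error. Dnah7a and Rsph1 rise in early spermatocyte cluster 2, and Dnah8 and Zmynd10 in the unnamed cluster. Dnah3 and Tekt2 rise in late spermatocyte cluster 2 and Tekt5 in round spermatids. Dnaaf5 falls from the unnamed cluster to round spermatids, and Cfap69 stays up in elongating spermatids. The knockout points of Zmynd10 lie above both wildtype lines.

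The assembly factors covered nearly the whole range of onsets. Dnaaf2, a co-chaperone of dynein folding (chr12:69189087-69198429, minus strand), was already at 72.9, 71.96 and 80.99 CPM in spermatogonia, against 99.04, 100.2 and 102 CPM in its highest cluster. Dnaaf5 (chr5:139150223-139186510, plus strand), a HEAT-repeat assembly factor, was at 25.1, 20.6 and 19.04 CPM in spermatogonia, at 23.8, 23.4 and 25.2 CPM in the unnamed cluster and at 2.47, 3.98 and 4.304 CPM in round spermatid cluster 1. Both were present before any heavy chain had its onset. Neither rose steadily: Dnaaf2 was at 43.8, 49.7 and 40.4 CPM and Dnaaf5 at 10.96, 8.68 and 13.7 CPM in early spermatocyte cluster 1, below their spermatogonial level in every library.

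Dnaaf1 and Zmynd10 had their onset in the unnamed cluster. Dnaaf1 was at 309.9, 362 and 334 CPM in the unnamed cluster and at 884, 915 and 950.0 CPM in late spermatocyte cluster 1. The libraries gave different onsets for Spag1, which was at 15.9, 23.99 and 22.3 CPM in spermatogonia. It then stood at 25.1, 32.5 and 33.4 CPM in early spermatocyte cluster 2 and at 77.5, 79.2 and 80.4 CPM in late spermatocyte cluster 1. Zmynd10 (chr9:107547298-107551319, plus strand), a zinc finger protein needed for heavy chain assembly, stood at 50.2, 47.4 and 65.4 CPM in early spermatocyte cluster 2, at 271, 312 and 432 CPM in the unnamed cluster and at 450.5, 463 and 682 CPM in late spermatocyte cluster 1. Its knockout value was the highest of the 3 in each of the 11 clusters, and also in Leydig cells.

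Of the assembly genes, Dnaaf3 had its onset in late spermatocyte cluster 2. Dnaaf3 had 31.1, 33.1 and 33.4 CPM in late spermatocyte cluster 1, 84.98, 101 and 117 CPM in cluster 2 and 260.2, 257 and 258 CPM in round spermatid cluster 1. Ccdc103, which helps to attach dynein arms to microtubules, rose from 47.2, 44.9 and 45.2 CPM in the unnamed cluster to 134, 129 and 133 CPM in late spermatocyte cluster 2. The libraries gave different onsets for Ccdc103, and 2 genes on the same strand (Fam187a and Gm26668) lie at its 3′ end.

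The ruler and nexin link genes rose in or just before the unnamed cluster. Ccdc39, of the ruler that sets the spacing of the arms, was at 113, 130.1 and 73.6 CPM in early spermatocyte cluster 2, at 376, 391 and 351 CPM in the unnamed cluster and at 426, 435 and 477 CPM in late spermatocyte cluster 1. Its partner Ccdc40 was at 4.48, 10.1 and 7.601 CPM, 41.9, 46.7 and 44.1 CPM and 107, 109 and 113 CPM in the same clusters. Ccdc39 thus had a larger part of its level in early spermatocytes than Ccdc40 did, in every library.

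The nexin link genes were highest 1 cluster later, in late spermatocyte cluster 2. Drc1 reached 129, 132 and 131 CPM there, Ccdc65 219.6, 248 and 234 CPM and Gas8 131, 129 and 139 CPM. All 3 had their onset in the unnamed cluster, where Gas8 was at 95.9, 92.05 and 97.9 CPM.

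The tektins rose in turn. Tekt1 began in the unnamed cluster, at 262, 269.5 and 292 CPM, and Tekt3 in late spermatocyte cluster 1, at 140.0, 149 and 156 CPM. Tekt2 (chr4:126322121-126325688, minus strand) stood at 55.97, 61.8 and 59.8 CPM in the unnamed cluster and 136, 133 and 162 CPM in late spermatocyte cluster 1, and then at 796, 804 and 959 CPM in cluster 2 and 1004, 947 and 1154 CPM in round spermatid cluster 1. Tekt4 took the same step between the late spermatocyte clusters, from 123, 112 and 124 CPM to 796, 796 and 853 CPM. Tekt4 stood at 28.7, 35.97 and 30.2 CPM in the unnamed cluster. There both Tekt2 and Tekt4 were lower than in early spermatocyte cluster 1 in all 3 libraries. Leydig levels were 169, 84.5 and 70.8 CPM for Tekt2 and 103, 95.6 and 47.3 CPM for Tekt4, above those of the unnamed cluster. Both clusters come before the onset of these genes, so this difference is not read as expression.

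Tekt5 (chr16:10357948-10395490, minus strand) was the latest member and had 2 phases. It was at 31.7, 29.1 and 33.4 CPM in late spermatocyte cluster 1 and at 9.13, 11.1 and 8.88 CPM in cluster 2, and the counting intervals of these 2 clusters did not overlap in any library. It was then at 72.9, 71.7 and 80.3 CPM in round spermatid cluster 1 and at 191, 199.5 and 212 CPM in cluster 2, its highest. All 3 libraries gave these 4 values in the same order.

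The tether and dynein-linked genes began in the unnamed cluster. Cfap43 was at 122, 128 and 106 CPM there and at 133, 138 and 128 CPM in late spermatocyte cluster 1. Cfap44, its partner in the tether, was highest 1 cluster later, at 111, 99.3 and 121 CPM. Cfap70, an outer arm linked protein, was highest in late spermatocyte cluster 1, at 139.6, 141 and 129 CPM.

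Of the central pair genes, Hydin, Cfap65, Spag16, Spag17 and Spef2 began in the unnamed cluster in all libraries. Spag17 was at 85.2, 85.2 and 78.7 CPM in early spermatocyte cluster 2, at 441, 477 and 431 CPM in the unnamed cluster and at 689.9, 692 and 706 CPM in late spermatocyte cluster 1. Hydin, which builds a central pair projection, was at 10.3, 16.3 and 14.7 CPM, 60.8, 67.4 and 52.5 CPM and 77.1, 74.1 and 78.9 CPM in these clusters. Spag16 was at 148, 162 and 135 CPM in the unnamed cluster and at 223, 218 and 214 CPM in late spermatocyte cluster 1. Cfap54 was highest in the unnamed cluster itself, at 57.1, 52.6 and 52.1 CPM.

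The radial spoke head genes differed in time. Rsph1 (chr17:31255019-31277383, minus strand) was at 198, 237 and 306 CPM in early spermatocyte cluster 1, at 1502, 1550.0 and 1366 CPM in cluster 2 and at 4622, 4459 and 4799 CPM in late spermatocyte cluster 1. Rsph9 was at 32.7, 28.7 and 29.3 CPM in early spermatocyte cluster 2, at 126, 126 and 120.5 CPM in the unnamed cluster and at 294, 297 and 284 CPM in late spermatocyte cluster 2. Meig1 (chr2:3409043-3422648, minus strand), which carries cargo along the manchette, the microtubule skirt of elongating spermatids, was the most abundant member by UMIs per gene. It was at 1883, 1991 and 1461 CPM in early spermatocyte cluster 2, at 5861, 6064 and 5079 CPM in the unnamed cluster and at 9483, 9146 and 8007 CPM in late spermatocyte cluster 2.

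Few members kept their share of RNA to the end. In elongating spermatid cluster 3, 35 of 44 members were under 10% of their own highest cluster in every library. Only Dnali1, Cfap69, Hydin and Spag17 were at 20% or more in every library. Cfap69 (chr5:5579278-5664239, minus strand), needed for normal sperm tails, was at 177, 182 and 189 CPM in round spermatid cluster 1, at 116, 125 and 130.0 CPM in elongating cluster 1 and at 150.1, 159 and 185 CPM in cluster 2. In elongating cluster 3 it was still at 76.2%, 77.7% and 90.4% of its highest cluster. These percents are of CPM, and cells of elongating cluster 3 had medians of only 8109.5, 6270 and 10883 UMIs. By UMIs per cell Cfap69 was highest in late spermatocyte cluster 1, at 9.054, 6.795 and 11.26. Hydin was higher in elongating cluster 3 (33.3, 29.2 and 38.1 CPM) than in elongating cluster 1 (19.8, 15.7 and 17.5 CPM) in all 3 libraries. Meig1 was at 8410.0, 8026 and 7057 CPM in elongating cluster 1 and at 964, 1029 and 865 CPM in cluster 3.

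Low levels in early clusters need those in somatic cells beside them. The median member had, in myoid cells, 18%, 25.5% and 23.4% of its level over all cells, and in Leydig cells 40.8%, 40.9% and 34.4%. Markers of elongating spermatids, measured the same way, had medians of 17.9%, 15.4% and 14.0% in myoid and 18.3%, 18.2% and 18.9% in Leydig cells. In spermatogonia 17, 9 and 4 of the 44 members stood above their myoid level and 3, 3 and 4 above their Leydig level. Early values of other members are therefore not read as expression. Outside the low-UMI clusters, the 1 cluster with its highest marker score for Sertoli cells (25, 12 and 62 cells) had none of its markers among its top 10 genes and was left out of the somatic level. This cluster had higher levels of some members, with Meig1 at 6699, 6852 and 5348 CPM, Dnali1 at 229, 242 and 244 CPM and Tekt5 at 44.4, 64.5 and 60.5 CPM, and its part in the onsets was not tested.

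The order of single cells gave a like picture in each library. Cells of the named classes were placed in 20 bins of pseudotime with edges common to all libraries, and the unnamed cluster was not part of them. The first bin at 50% of a member's highest bin was the same in all 3 libraries for 41 of 44 members and within 1 bin for 44. The highest bin was the same for 24 members and within 1 bin for 43. Most members reached 50% in bin 5, the first bin made up mainly of late spermatocytes.

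**Figure D3:**
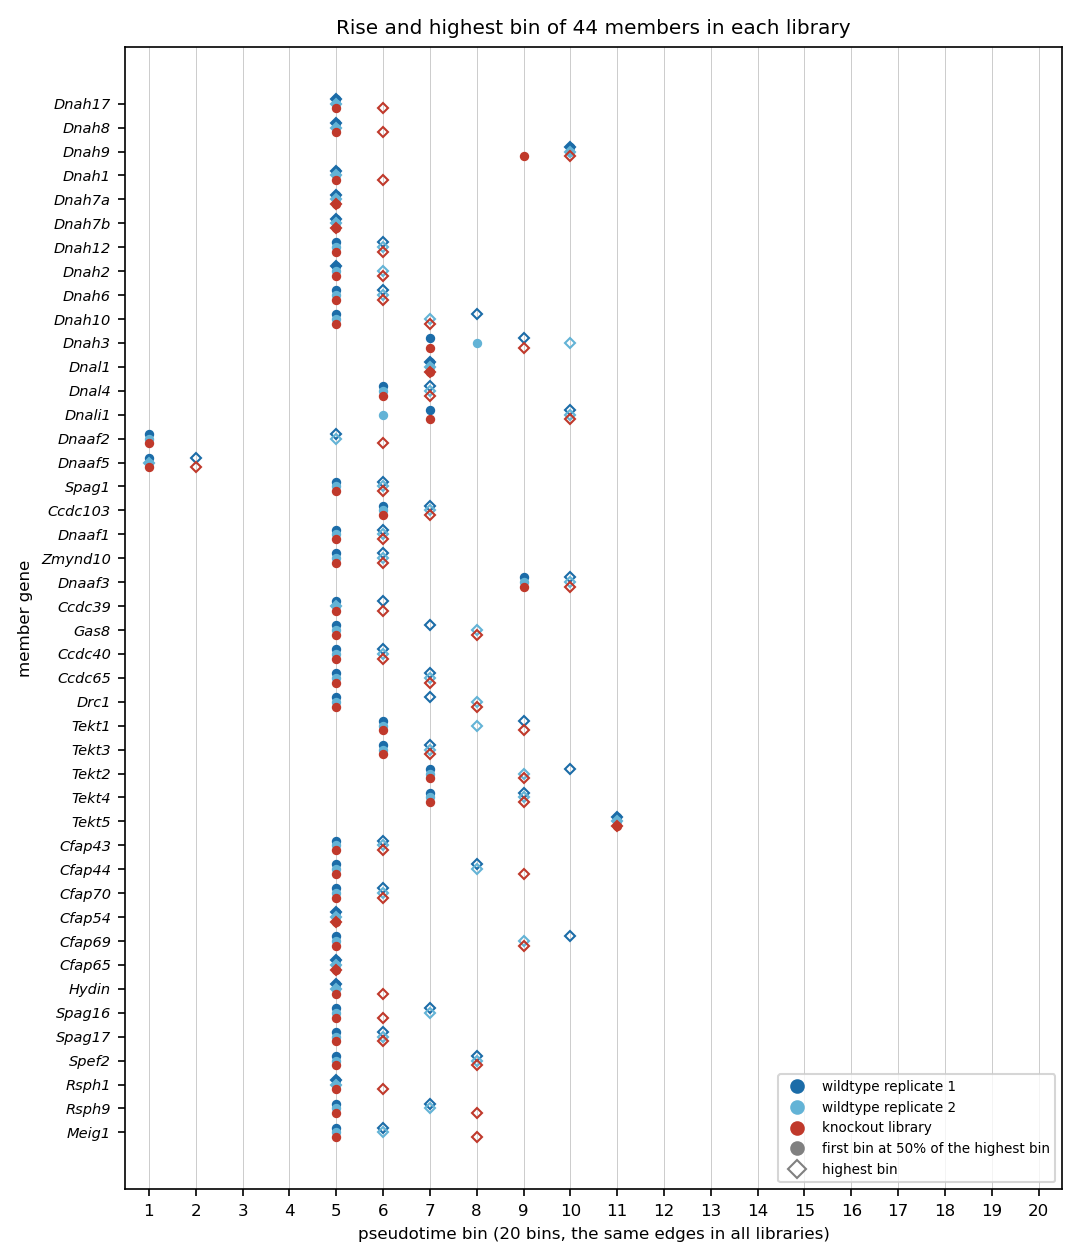
First pseudotime bin at 50% of the highest bin (filled circles) and highest bin (open diamonds) of the 44 members with a call, in each library. Most filled circles sit at bin 5, those of Dnaaf2 and Dnaaf5 at 1, of Dnaaf3 at 9, of Dnah9 at 9 or 10 and of Tekt5 at 11, and for each member the circles of the 3 libraries lie within 1 bin of each other.

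Other axoneme genes, 93 non-members from a list of arm, spoke, central pair, doublet, transport and regulator genes, also had late spermatocytes as their most frequent class of onset. Of 87 with a call, 42 began there (14.7% of 13588 genes), 17 in early spermatocytes (6.42%), 6 in spermatogonia (32.2%) and 1 in round spermatids (9.63%). The libraries differed for 20, and 1 had no onset. As for the members, the unnamed cluster was not part of these classes. Examples chosen after their onsets were seen are the intermediate chain gene Dnaic1 and the assembly factor Lrrc6 among the early ones, and the intermediate chain gene Dnaic2 and the outer arm docking genes Armc4 and Ccdc151 among the late ones.

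Regulators from that list had courses of their own; the 3 given here were picked after their values were seen. Rfx2, which binds the X-box, was at 19.4, 22.1 and 30.4 CPM in early spermatocyte cluster 1, 60.95, 66.5 and 57.3 CPM in cluster 2 and 95.2, 97.2 and 95.1 CPM in late spermatocyte cluster 1. Mybl1, which encodes A-MYB, was at 5.697, 4.05 and 8.04 CPM in spermatogonia and 116, 91.5 and 107 CPM in early spermatocyte cluster 1. Foxj1, a regulator of motile cilia genes, was at 1.24, 1.43 and 0.97 CPM in late spermatocyte cluster 1 and 67.9, 74.8 and 74.6 CPM in cluster 2, the step at which Dnah3, Dnaaf3, Tekt2 and Tekt4 also had their onset. Levels set side by side show order alone. Multiciliated cells of the outflow ducts also express axoneme genes. Of 7 markers of such cells, Tmem212 had 0 UMIs in every germ cell class except for 3 in elongating spermatids of the knockout library, and Mcidas had 0 to 2. The other 5 were found in germ cells, and their summed level with these 2 was 38.4, 44.3 and 41.8 CPM in spermatogonia and 294.6, 331.5 and 317 CPM in round spermatids. Their part in the members' levels was not tested.

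No member passed the rule of size in the comparison of the knockout library with the wildtype libraries. That rule asked for a ratio of 2-fold or more (1 CPM added) to both wildtype libraries in 1 direction, at least 2 times their own log2 difference, and 20 CPM in any library. It called 0 of 17 members tested in spermatogonia (0.338% of 7396 genes), 0 of 28 in early spermatocytes (0.31% of 7098), 0 of 42 in late spermatocytes (0.87% of 5975), 0 of 33 in round spermatids (1.2% of 5418) and 0 of 15 in elongating spermatids (1.29% of 3107). Of the other axoneme genes it called 0 as well, with 34, 49, 75, 65 and 29 tested in these classes, in the same order. With either wildtype library in the knockout's place it also called 0 members. It then called 0 to 3 genes in a class, the most being 3 of 7396 in spermatogonia, so the 0 says little about the members. At 1.5-fold it called Zmynd10 in late spermatocytes (1.67% of genes) and no member elsewhere, beside 1.19%, 1.13%, 2.93% and 3.35% of genes in the other classes from spermatogonia on.

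Members as a group lay close to all genes. From spermatogonia to elongating spermatids, the 5 classes had member medians of 0.02, -0.02, 0.09, -0.04 and 0.11 for the log2 ratio of knockout over wildtype mean. The medians of all genes at 5 CPM or more were -0.01, 0.02, 0.01, -0.04 and 0.05. The wildtype libraries themselves differed, with member medians of 0.22, 0.18, -0.05, 0.15 and 0.05 for replicate 2 over replicate 1.

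In late spermatocytes 23 of 43 members were higher in the knockout library than in both wildtype libraries, beside 38.7% of genes, and 8 were lower than both, beside 30.7%. In elongating spermatids 16 of 31 were higher (47.9% of genes) and 7 lower (29.4%). Spermatogonia had 12 of 40 higher (33.4%) and 11 lower (35.7%), early spermatocytes 15 of 42 higher (39.0%) and 13 lower (32.6%), and round spermatids 10 of 42 higher (30.5%) and 13 lower (40.1%). Most of these differences were small: in late spermatocytes the members' log2 ratios ran from -0.27 (Dnal1) to 0.66 (Zmynd10).

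**Figure D4:**
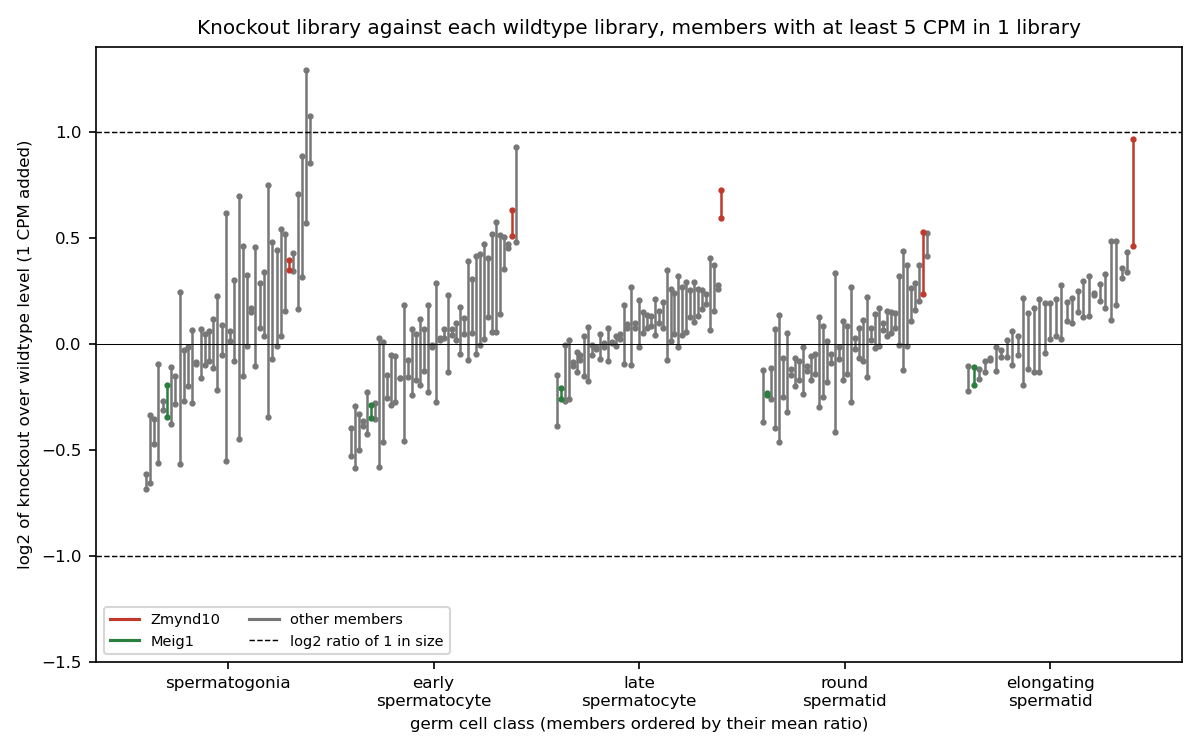
Log2 ratio of the knockout library over each wildtype library (2 points joined by a line) for every member with at least 5 CPM in a library, by class. Dashed lines mark a log2 ratio of 1 in size, and no member lies beyond them against both wildtype libraries. Zmynd10 has the highest ratio in late spermatocytes and in elongating spermatids, and Meig1 is below 0 in all 5 classes.

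Of 31 members with 5 CPM or more in all 5 classes, Zmynd10, Dnaaf1 and Spag17 were above both wildtype libraries in every class, beside 5.95% of 4406 genes. Meig1 was below both in every class, beside 6.17%. The classes share the same 3 libraries and are not independent. Zmynd10 and Meig1 had these directions in Leydig cells too, at 65.0, 79.0 and 100.6 CPM and at 2564, 2449 and 1737 CPM. In spermatogonia and early spermatocytes both genes lay below these levels, and Zmynd10 did so in round and elongating spermatids too. What part background had in the directions in these classes was not tested. Under every alternative run, Zmynd10 stayed above the wildtype mean in all 5 classes, with log2 ratios of 0.23 to 0.97. The sign of Spag17 and Dnaaf1 turned in places. In early spermatocytes the stricter cell filter gave -0.26 for Spag17 (0.06 before) and -0.05 for Dnaaf1 (0.17 before). Spag17 was at -0.20 in spermatogonia thinned to 2000 UMIs per cell (0.32 unthinned).

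Zmynd10 had the highest ratio of all members in late spermatocytes and in elongating spermatids. In late spermatocytes it stood at 348, 318 and 525 CPM, from 9991, 7926 and 19175 UMIs. The wildtype mean was 333 ± 21.7 CPM (SD, n = 2), the knockout value was 158% of it, and its interval of 518 to 533 CPM lay above both wildtype intervals. The log2 ratios were 0.59 and 0.72. It was also highest in the knockout library in early spermatocytes (39.2, 36.04 and 56.3 CPM), round spermatids (20.6, 25.5 and 30.1 CPM) and elongating spermatids (8.74, 12.8 and 18.03 CPM). In elongating spermatids the wildtype libraries differed from each other by a log2 ratio of 0.50, and the knockout exceeded the nearer one by 0.46. In spermatogonia (14.1, 14.5 and 18.8 CPM) the counting intervals of all 3 libraries overlapped, and in round spermatids those of the knockout library and wildtype 2 did. The difference was present within single clusters, as the values of the unnamed cluster and late spermatocyte cluster 1 above show. Knockout cells were deeper. With every cell thinned to 2000 UMIs the log2 ratio in late spermatocytes was 0.69, against 0.66 unthinned. With 1 knockout library, genotype and library cannot be told apart, and the cause of the difference was not tested.

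Meig1 had the opposite sign. It stood at 1657, 1725 and 1355 CPM in early spermatocytes, 9454, 9119 and 7888 CPM in late spermatocytes and 8152, 8204 and 6930.0 CPM in round spermatids. The knockout level was 80.1%, 84.9% and 84.8% of the wildtype mean in these classes. In spermatogonia (747, 831 and 654 CPM) and elongating spermatids (5528, 5216 and 4837 CPM) it was 82.8% and 90.04%. Within elongating cluster 2 alone the knockout library was the highest, with 2441, 2362 and 2776 CPM. In spermatogonia the log2 ratio of -0.27 became 0.12 when low-UMI clusters were named too.

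**Figure D5:**
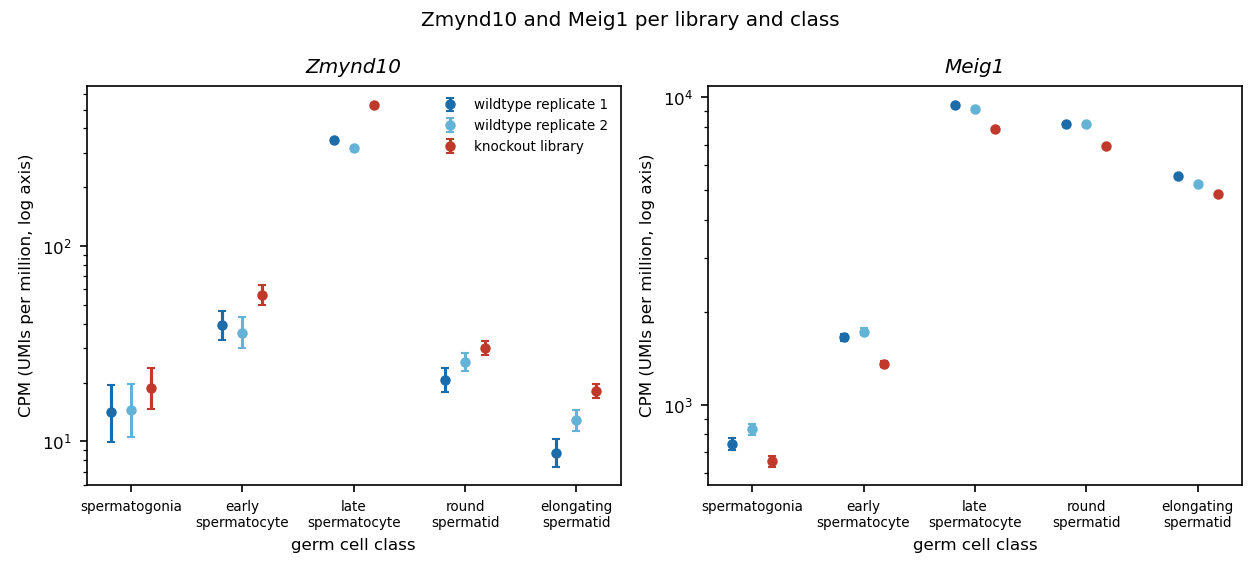
CPM of Zmynd10 and Meig1 by germ cell class (log axes, not starting at 0) in the 2 wildtype libraries and the knockout library, with 95% Poisson intervals for counting error. The knockout point of Zmynd10 is the highest of the 3 in every class, and that of Meig1 the lowest.

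Other members had smaller differences or low levels. Dnah7a had the largest ratio in spermatogonia, at 3.04, 3.72 and 7.51 CPM, below the level the rule needs. Spag17 was at 178, 184 and 228 CPM in elongating spermatids and at 594, 571 and 636 CPM in late spermatocytes, highest in the knockout library in both. Dnaaf1 was at 869, 881 and 927 CPM in late and 128, 127 and 149.9 CPM in elongating cells. Ccdc39 was lowest in the knockout library in early spermatocytes (80.5, 90.5 and 63.6 CPM) and highest there in late spermatocytes (372, 351 and 418 CPM). Its log2 ratio in early spermatocytes, -0.42, was 0.021 after thinning to 2000 UMIs per cell. Cfap44 was at 9.36, 13.1 and 18.7 CPM in early spermatocytes, the largest ratio of a member in that class. Dnal1 was the member with the lowest ratio in spermatogonia (11.4, 10.8 and 6.704 CPM) and in late spermatocytes (60.3, 71.6 and 54.4 CPM). None of these passed the rule of size.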

How the data were processed

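The authors deposited raw UMI counts for each gene and barcode; per the file headers Cell Ranger 4.0.0 wrote them. Seurat 4.0.5 and mm10 stand in the submitters' processing notes with no role given. Barcodes with at least 1000 UMIs, 500 genes and at most 10% mitochondrial UMIs were kept. Scrublet's own threshold marked 0, 1 and 0 barcodes and had thus not worked, so the top 8% of scores per library were left out. Cells were clustered without the members in scanpy 1.11.5 (2000 variable genes, 30 components, 15 neighbours, Leiden resolution 1 with leidenalg 0.10.2) and named from marker lists. Clusters with a median UMI total under 3 times the library's lowest deposited total were kept out of the stages. UMIs were summed per library and class or cluster. The cell graph fell into 2 unconnected parts, so each was ordered by its first diffusion component in place of the planned diffusion pseudotime. TMM scaling, an alternative, used edgeR 4.0.16. The scripts for onset and for the rule of size were tested on simulated data. The rule for naming took in all members, other axoneme genes that pass the rule of size (0 did), the regulators, Tex10 and class markers; 5 further axoneme genes are named as examples. The members and lists were chosen with earlier results of these data known. The wildtype replicates are separate mice per the labels.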

Additional observations from a re-analysis of the deposited data

Results flagged for a closer look

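The low-UMI clusters, which enter none of the stages, also held RNA of the members: 181110 UMIs in wildtype replicate 1, 147976 in wildtype replicate 2 and 379077 in the knockout library. That is 1.495%, 1.47% and 1.48% of the UMIs in those clusters, and 46, 45 and 46 members exceeded the floor of 3 counts. They are given because a signal lies in cells that the comparisons leave out. In the largest of these clusters, of 1324, 888 and 3119 cells, Zmynd10 stood at 209, 265 and 349 CPM and Meig1 at 9093, 9090.0 and 8242 CPM. In this cluster the knockout library was the highest for Zmynd10 and the lowest for Meig1. It was also the highest for Dnah8 (206, 243.5 and 308 CPM), while Rsph1 and Tekt1 were highest in wildtype replicate 2. In the low-UMI cluster of 158, 174 and 467 cells Meig1 was not lowest in the knockout library (6465, 5514 and 5759 CPM). In every other low-UMI cluster it was.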

How the results depend on the processing

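The knockout group has 1 library, so every comparison of groups rests on 3 libraries, and depth limits calls for members under 20 CPM. Medians near 0 changed sign as given below. Onset counts were recomputed under 13 alternatives and highest-level counts under 10. Over the 5 classes this gave 65 and 50 counts, of which 49 and 43 stayed within 1.5 times. The elongating counts, 0 under every alternative, are among those that stayed. Early spermatocyte onsets (4) were 0 with onset at 50%, with mean UMIs per cell, with the top 4% of doublet scores left out and with low-UMI clusters named, 2 when clustered with the members, and 29 under the stricter filter. Late spermatocyte onsets (29) were 6 under the stricter filter and 6 with the unnamed cluster as a stage, and highest levels there (33) were 21 in the latter. Round spermatid onsets (2) were 1 with onset at 10%, with UMIs per cell, clustered with members or with low-UMI clusters named, and 4 with onset at 50% or without late spermatocyte cluster 2. Spermatogonial onsets (2) were 1 under the stricter filter or with no condition on somatic cells, and the spermatogonial highest level (1) was 0 with UMIs per cell, the stricter filter, members in the clustering, 4% doublets or the unnamed stage. The stricter filter put 3 highest levels in early spermatocytes. The size rule called 1 late member at 1.5-fold (Zmynd10). After thinning to 2000 UMIs per cell it called 1 each in spermatogonia and round spermatids. They were Cfap69 (10, 15 and 5 UMIs) and Dnah10 (4, 9 and 16 UMIs), levels too low to read. Thinning raised its calls over all genes from 25 to 153 in spermatogonia and from 65 to 119 in round spermatids. The early median (-0.02) was -0.22 under the stricter filter and 0.046 thinned, and the elongating median (0.11) was 0.027 under the stricter filter and 0.030 with TMM. The spermatogonial median (0.02) was 0.20 with low-UMI clusters named and -0.089 without wildtype replicate 1. The round spermatid median (-0.04) was -0.12 without wildtype replicate 1 and 0.077 without wildtype replicate 2. The late median (0.09) was 0.11 clustered with members, 0.074 with low-UMI clusters named, 0.0646 with equal cluster weights, 0.059 thinned and 0.062 without late cluster 2. Leaving out 1 wildtype replicate gave late medians of 0.056 to 0.073 and early medians of -0.031 to 0.046. Meig1's log2 ratio in spermatogonia, -0.27, became 0.12 with low-UMI clusters named. Those of Spag17 and Dnaaf1 in early spermatocytes and of Spag17 in spermatogonia turned as given above. Ccdc39 turned in early spermatocytes (-0.42 to 0.021 thinned), in spermatogonia (0.098 to -0.081 without wildtype replicate 1) and in round spermatids (0.13 to -0.12 without wildtype replicate 1 and -0.0029 under the stricter filter). The late spermatocyte cluster 2, unnamed stage and somatic alternatives were chosen after seeing the data. The cause of these changes was not tested. No paired analysis was possible because the knockout group has 1 library, which pools 2 mice.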
